A study of Mus musculus with 6 samples.

Results

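The miR-125 and miR-99/100 families were measured in a mouse renal tubular cell line as mmu-miR-125a-5p, mmu-miR-125b-5p, mmu-miR-99a, mmu-miR-99b and mmu-miR-100 (mmu- is left out below). These entries were taken by name, without opposite-arm (star) forms, and are 5 of the 611 mouse microRNA (miRNA) entries on the array. Of the 5, 3 gave enough signal to be tested, among 84 tested in all. Testing required a signal that the scanner software marked well above background, in at least 0.5 of a probe's spots, on all 3 arrays of a group. The cells were MCT, a renal tubular line of SJL H-2S strain background. One group of 3 arrays held untreated control cells, and the other group of 3 arrays held cells stimulated with TGFβ at 3 ng/ml for 72 hours. Both groups were the same line, grown in medium with 10% fetal calf serum and shifted to 0.5% serum the day before TGFβ went in. Each array was hybridised with Cy3-labelled RNA made from 100 ng of total RNA. The labels do not say whether the 3 replicates of a group were separate cultures, so a p-value here reflects only how these arrays vary, and that variation may be technical.

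MiR-125 is the vertebrate counterpart of lin-4, the founding miRNA of worm developmental timing, and is known to repress transcripts of cell cycle, apoptosis and differentiation genes. MiR-99 and miR-100 are known for repressing mTOR. The genes lie in 3 related clusters, each with a miR-99/100 gene, a let-7 gene and a miR-125 gene. TGFβ is a growth factor known for its part in kidney fibrosis, and the series compares miRNA levels with and without it.

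The mature sequences show which members share a seed, the stretch of bases 2 to 8 that pairs with target transcripts. All 5 members matched a mature entry of the RefSeq table (build GRCm38.p6), and the array's miR-99a, miR-99b and miR-100 correspond to its -5p arms. Seeds are in capitals, 5′ to 3′.
miR-125b-5p: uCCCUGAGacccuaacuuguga
miR-125a-5p: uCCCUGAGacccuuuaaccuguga
miR-351: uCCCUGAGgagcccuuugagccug
miR-99a: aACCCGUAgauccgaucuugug
miR-100: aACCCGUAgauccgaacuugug
miR-99b: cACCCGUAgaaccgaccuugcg
MiR-351, shown because it carries the miR-125 seed, is no member. MiR-125a-5p and miR-125b-5p share their first 13 bases and then part, and miR-125a-5p is the longer, with 24 bases against 22. MiR-99a and miR-100 differ by the single substitution U16A, counted from the 5′ end with the miR-99a base first. MiR-99b differs from miR-99a at 4 of 22 positions (A1C, U11A, U16C and U21C).

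The RefSeq gene table places Mir100, Mirlet7a-2 and Mir125b-1 next to each other on chromosome 9, all within the span of the long noncoding gene Mir100hg. Mir99a, Mirlet7c-1 and Mir125b-2 are neighbours on chromosome 16. Mir99b, Mirlet7e and Mir125a are neighbours on chromosome 17 within the span of Spaca6. The table's build differs from the mm9 build named in the array headers, so no coordinates are given. Mature miR-125b-5p is made from 2 genes, Mir125b-1 and Mir125b-2, which one array entry cannot separate. The hairpins below are shown because both of their arms, in capitals, had an entry on the array. Both arms of Mir125b-2 and Mir99b did too, but RefSeq gave no hairpin for these genes.
Mir125b-1: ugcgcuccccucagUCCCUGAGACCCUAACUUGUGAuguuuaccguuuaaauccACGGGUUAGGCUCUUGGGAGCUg
Mir125a: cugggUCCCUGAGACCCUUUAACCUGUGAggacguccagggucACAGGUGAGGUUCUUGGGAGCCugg

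Control 1 and TGFβ 1 each stood apart from the rest of their group. Control 1 differed from control 2 by a median of 0.35 log2 units over 105 bright probes and from TGFβ 3 by 0.13, while controls 2 and 3 differed by 0.06. Whether control 1 carries the right label was not tested and cannot be judged from the labels, and each control mean and each value without control 1 below depends on it. TGFβ 1 exceeded every other array by 2 log2 units or more for 15 mouse miRNAs, and no other array did so for any. The 75th percentile of signal used for scaling was 363.7, 268.6 and 249.5 intensity units for controls 1 to 3 and 365.3, 402.4 and 339.9 for the TGFβ arrays, so controls 2 and 3 were the dimmest. Those 2 arrays also had the fewest miRNAs well above background, 75 and 74, against 86 to 103 on the other 4 arrays. Of 7 kidney tubule markers 3 were well above background (miR-10a, miR-10b and miR-30a), and miR-192, miR-194, miR-215 and miR-204 were not. Signals summed over all 7, without scaling between arrays, were 584.4 to 612.6 in control and 465.6 to 581.6 in TGFβ arrays. None of 5 epithelial, 5 fibroblast or smooth muscle, 2 endothelial, 6 blood, 2 neuron and 1 liver markers was well above background on any array, and of 3 muscle markers 1 was, miR-206.

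MiR-125b-5p read above every control on each TGFβ array, by a narrow margin. Its log2 scaled signal, the processed signal after scaling arrays to one 75th percentile, was 7.37, 6.43 and 6.38 in control arrays 1 to 3 and 7.80, 7.96 and 7.43 in TGFβ arrays 1 to 3. Control 1 lay 0.06 below the lowest TGFβ array and almost a full log2 unit above the other controls. The group means were 6.73 ± 0.56 and 7.73 ± 0.27 (SD, n = 3). The difference was 1.00 (SE 0.32, 95% interval 0.23 to 1.78), or 2.00 times the control level, and it did not pass (limma adjusted p = 0.391, unadjusted p = 0.0194). Over the 84 tested miRNAs the median difference was -0.09, with quartiles of -0.30 and 0.28.

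None of the 3 tested members passed in limma with all 6 arrays (adjusted p below the threshold of 0.05), where 0 of 84 tested miRNAs (0%) passed and 8 (9.52%) had an unadjusted p under 0.05, 5 of them (5.95%) with the TGFβ mean above the control mean. Of the 3, miR-125b-5p was the 1 with such a p. With the replicate number as a block, 1 of 84 passed (miR-714, no member, named after its value was seen), and miR-125b-5p kept its difference of 1.00 (SE 0.27) with a limma adjusted p of 0.114. The groups did not overlap for 1 of the 3 tested members, again miR-125b-5p, and for 14.3% of all tested miRNAs (8.33% higher with TGFβ). Controls 2 and 3 were the lowest pair of arrays for miR-125b-5p, as for 25% of tested miRNAs, and they were also the pair with the lowest scaling percentile. The part of array brightness in the difference was not tested.

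**Figure D1:**
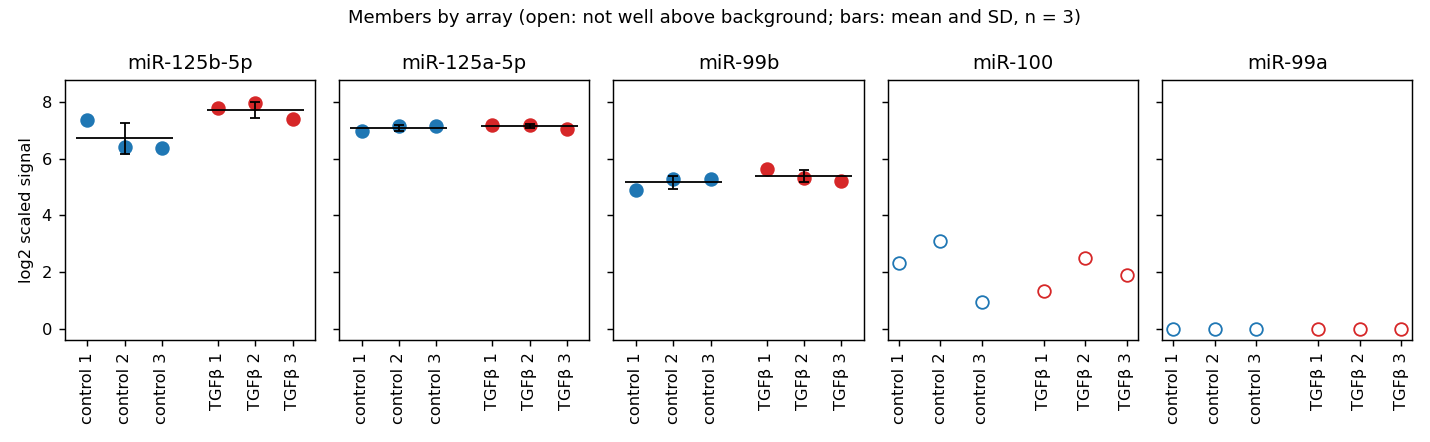
Log2 scaled signal (vertical axis) of each member on the 6 arrays, controls in blue and TGFβ in red, with bars for the mean and SD of 3 arrays where the member was well above background. MiR-125b-5p runs from 6.38 to 7.96 with control 1 beside the TGFβ arrays, miR-125a-5p stays between 6.99 and 7.21, miR-99b lies between 4.92 and 5.64, and the open points of miR-100 and miR-99a are not well above background.

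Of the 2 miR-125b-5p probes, 1 was well above background, and its spots showed control 1 near the TGFβ arrays before any scaling. Its mean processed signal was 360.2, 136.8 and 126.6 intensity units in control arrays 1 to 3 and 481.5, 599.0 and 349.3 in TGFβ arrays 1 to 3, and all 10 spots were well above background on each array. The spots of control 1 (330.7 to 403.5) overlapped those of TGFβ 3 (328.4 to 381.1), while those of control 2 (117.7 to 154.7) and control 3 (107.0 to 141.3) lay below every TGFβ spot. The other probe of miR-125b-5p was well above background on no array, with means of 0.74 to 15.9. On the log2 scale the first probe alone differed by 0.99.

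**Figure D2:**
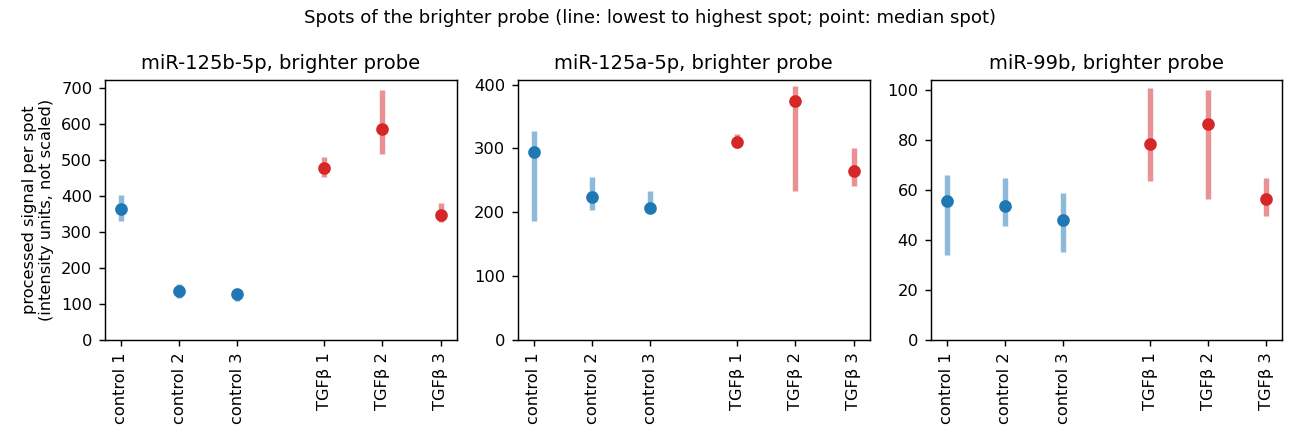
Unscaled processed signal (intensity units, vertical axis starting at 0) of the probe of miR-125b-5p, miR-125a-5p and miR-99b that was well above background on all 6 arrays, with a line from the lowest to the highest spot and a point at the median spot. For miR-125b-5p the spots of controls 2 and 3 lie between 107.0 and 154.7, far below those of control 1 and of the TGFβ arrays.

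Without control 1, miR-125b-5p was higher with TGFβ by 1.32 (SE 0.18, limma adjusted p = 0.0157), which is 2.49 times the level on controls 2 and 3. In that comparison 31 of 85 tested miRNAs (36.5%) passed, 11 of them higher (12.9%), and 1 of the 3 tested members did. Control 1 is the control nearest to the TGFβ arrays, and the p-value does not allow for its choice. Without control 1 and TGFβ 1 together, the difference was 1.29 (SE 0.20, limma adjusted p = 0.012), where 41.2% of tested miRNAs passed (17.6% higher and 23.5% lower). With array weights estimated by limma it was 1.17 (SE 0.17, adjusted p = 0.00594), where 53.6% passed (21.4% higher and 32.1% lower). Those weights were taken from these same arrays, at 0.14 for control 1 against 3.71 and 3.08 for controls 2 and 3. That fit therefore rests little on control 1 and is not separate from the fits without it. Leaving out TGFβ 1 alone gave 0.97 with 0 of 84 called. Leaving out control 2 or control 3 gave 0.85 and 0.83.

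Compared by slide position, the miR-125b-5p values were positive, as they had to be because its groups did not overlap. They give only the size of the gap at each position, not a check of its direction. In slide column 1, TGFβ 2 exceeded control 1 by 0.59. In column 2, TGFβ 3 exceeded control 2 by 0.997. In row 1, TGFβ 1 exceeded the mean of the 3 controls by 1.07, and row 2 held TGFβ arrays alone. All arrays were on 1 slide with 1 scan time. With the column as a block the difference was 0.79 (SE 0.36, limma adjusted p = 0.941), and with the row as a block it was 1.07 (SE 0.48, limma adjusted p = 0.363).

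**Figure D3:**
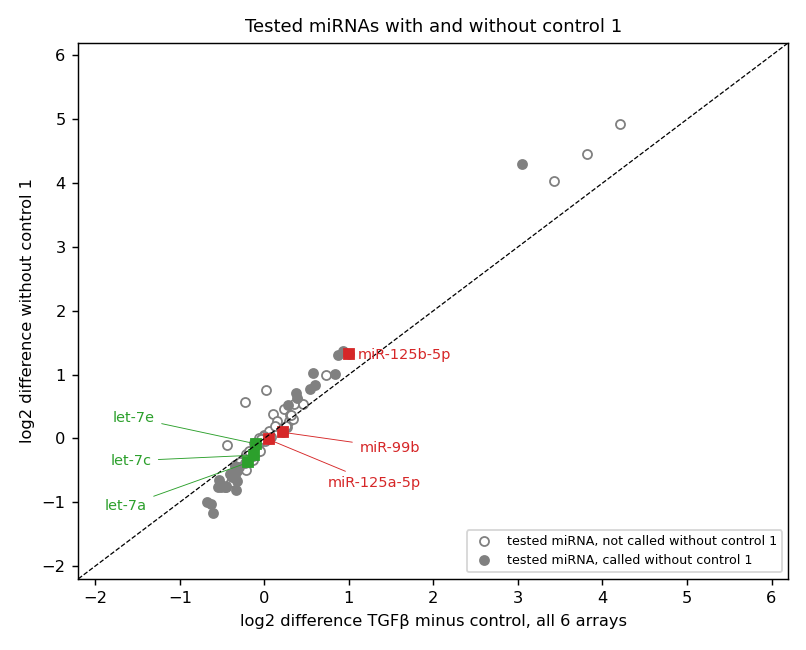
Log2 difference between TGFβ and control for 84 tested miRNAs with all 6 arrays (horizontal axis) and without control 1 (vertical axis). The dashed line marks equal values, and filled grey circles are those that passed in limma without control 1. Tested members are red squares and the let-7 cluster partners green squares, all filled whether or not they passed. Of the squares only miR-125b-5p passed without control 1. It goes from 1.00 to 1.32, while miR-125a-5p and miR-99b stay near 0, at -0.02 and 0.09.

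MiR-125a-5p, the family member encoded beside miR-99b and let-7e, hardly varied between arrays. Its log2 scaled signal was 6.99, 7.16 and 7.18 in control arrays 1 to 3 and 7.19, 7.21 and 7.07 in TGFβ arrays 1 to 3. The lowest value was control 1 and the groups overlapped. The range over the 6 arrays was 0.23, and only 2 of the 84 tested miRNAs had a smaller one, against a median range of 0.79. The means were 7.11 ± 0.11 and 7.16 ± 0.08 (SD, n = 3), a difference of 0.05 (SE 0.14, limma adjusted p = 0.845) with a 95% interval of -0.28 to 0.38. Its main probe had all 10 spots well above background on every array, with a mean signal of 210.7 to 344.6, and the second probe was well above background on none. Without scaling between arrays the difference was 0.40, with a median over tested miRNAs of 0.26.

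MiR-99b, from the same chromosome 17 cluster, did not pass, and its groups overlapped. Its log2 scaled signal was 4.92, 5.31 and 5.28 in control arrays 1 to 3 and 5.64, 5.33 and 5.21 in TGFβ arrays 1 to 3. TGFβ 1 was highest and control 1 lowest, and the other 4 arrays lay within 0.12 of each other. The means were 5.17 ± 0.22 and 5.39 ± 0.22 (SD, n = 3), a difference of 0.23 (SE 0.19, limma adjusted p = 0.52) with a 95% interval of -0.24 to 0.69. Without control 1 the difference was 0.09, and without control 1 and TGFβ 1 together it was -0.02. The main miR-99b probe had a mean signal of 46.9 to 81.3, and the second one was well above background on TGFβ 1 alone, with 8 of 10 spots.

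The miR-99b value was larger with 1 other summary of its spots and probes. With the scanner software's total gene signal in place of the mean over probes, scaled log2 values were 5.11, 5.34 and 5.10 in control arrays 1 to 3 and 6.05, 5.83 and 5.74 in TGFβ arrays 1 to 3. On this measure the groups no longer overlapped, which held for 16.7% of the tested miRNAs (13.1% with TGFβ above control). The difference was 0.69 (SE 0.15, limma adjusted p = 0.336, unadjusted p = 0.004). This measure also moved the median difference over the 84 tested miRNAs from -0.09 to 0.07. MiR-99b had only a main and a second probe, so the median over probes equals the mean and gave the same 0.23. The brightest probe alone gave 0.15. With the mean over probes, the median spot signal and normexp background correction (offset 50) the difference was -0.07.

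MiR-99a and miR-100 were well above background on none of the 6 arrays and were not tested, so no fold is given for them. The 2 miR-99a probes gave mean signals between -4.70 and 1.69 intensity units, and 1 of their 120 spots over all arrays was marked well above background. The 2 miR-100 probes gave means between -1.95 and 13.2, with 4 of 120 such spots. The highest miR-100 reading came from 1 probe on control 2, where 2 of 10 spots were well above background. On the scaled log2 axis miR-99a sat at the floor (a scaled signal of 1 or less) on every array and miR-100 ran from 0.95 to 3.08 with the groups interleaved. The lowest scaled signal of any probe well above background was 19.4 to 36.4 intensity units per array.

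None of the let-7 partners of the clusters passed with all 6 arrays weighted equally. Let-7a, let-7c and let-7e, members of the let-7 family of differentiation-linked miRNAs, were well above background on all 6 arrays. Let-7a differs from let-7c by the single substitution A19G and from let-7e by U9G. Whether the probes separate these 3 was not tested. Let-7a read 9.04, 9.59 and 9.58 in control arrays 1 to 3 and 9.06, 9.56 and 9.02 in TGFβ arrays 1 to 3. Let-7c read 9.84, 10.27 and 10.22 against 9.92, 10.21 and 9.83. Let-7e read 8.95, 8.90 and 8.92 against 8.65, 9.06 and 8.77. All 3 had overlapping groups, and their differences were -0.19 (SE 0.24), -0.12 (SE 0.19) and -0.10 (SE 0.16), with limma adjusted p of 0.633, 0.721 and 0.721. With limma array weights let-7a was lower with TGFβ, with a difference of -0.43 (adjusted p = 0.0402), where 32.1% of tested miRNAs were called lower. Leaving out 1 array at a time gave -0.38 (without control 1) to -0.093 (without TGFβ 3) for let-7a and -0.26 (without control 1) to -0.045 (without control 2) for let-7c. For let-7e it gave -0.21 (without TGFβ 2) to -0.0068 (without TGFβ 1). The signs of all 3 turned positive without scaling between arrays, at 0.16, 0.22 and 0.25, where the median over tested miRNAs was 0.26. Those of let-7c and let-7e also did with total gene signal, at 0.017 and 0.046, where the median was 0.07. Each of these let-7 values thus lay below the median of its setting. Let-7a and let-7c are also made from genes outside these clusters, so their signals are not a reading of the clusters alone.

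Entries for the opposite arms and for miR-351 gave little signal. MiR-125b-1-3p and miR-125b-2-3p, whose sequences differ between the 2 miR-125b genes, sat at the floor on all 6 arrays, as did miR-99b*. MiR-351 was well above background on no array. MiR-125a-3p was well above background on control 1 alone, at 4.15, and read 1.51 and 1.90 on controls 2 and 3 and 2.62 to 3.86 on the TGFβ arrays. In all, 3 of the 8 partner entries were tested, and none passed in limma with all 6 arrays weighted equally.

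Ratios within an array remove its scaling, and 5 of 9 planned pairs had both miRNAs well above background throughout; the other 4 held miR-99a or miR-100. The log2 ratio of miR-125b-5p to miR-125a-5p was 0.39, -0.73 and -0.80 in control arrays 1 to 3 and 0.61, 0.75 and 0.36 in TGFβ arrays 1 to 3. Control 1 fell among the TGFβ arrays, so the groups overlapped, and the difference of 0.95 gave an exact permutation p of 0.2 (two-sided, adjusted p = 0.333 over the 5 pairs). The smallest p that 3 against 3 arrays allow is 0.1.

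The ratio of miR-125b-5p to let-7c, its neighbour's product on chromosome 16, was -2.47, -3.84 and -3.84 in controls and -2.12, -2.24 and -2.40 with TGFβ. The groups did not overlap, and the difference of 1.13 had an exact permutation p of 0.1 (adjusted p = 0.25). Any non-overlap of the 2 groups gives that p. For miR-125b-5p to let-7a the difference was 1.19 with an exact permutation p of 0.1 (adjusted p = 0.25). In both ratios control 1 lay within 0.07 of the nearest TGFβ array. For let-7c the difference was 0.23 in slide column 1 and 1.44 in column 2. For let-7a it was 0.07 and 1.57.

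In the chromosome 17 cluster both ratios had overlapping groups. MiR-125a-5p to miR-99b was 2.07, 1.85 and 1.90 in controls and 1.55, 1.88 and 1.86 with TGFβ, a difference of -0.18 (exact permutation p = 0.3, adjusted p = 0.375). MiR-125a-5p to let-7e was -1.97, -1.74 and -1.74 against -1.46, -1.85 and -1.704, a difference of 0.15 (exact permutation p = 0.4, adjusted p = 0.4). TGFβ 1 was the array farthest from the rest in both, and without it the differences were -0.069 and 0.041. With total gene signal the miR-125a-5p to miR-99b ratio was 2.34, 2.08 and 2.17 in controls and 1.48, 1.88 and 1.79 with TGFβ. Those groups did not overlap, and the difference was -0.48 (exact permutation p = 0.1).

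**Figure D4:**
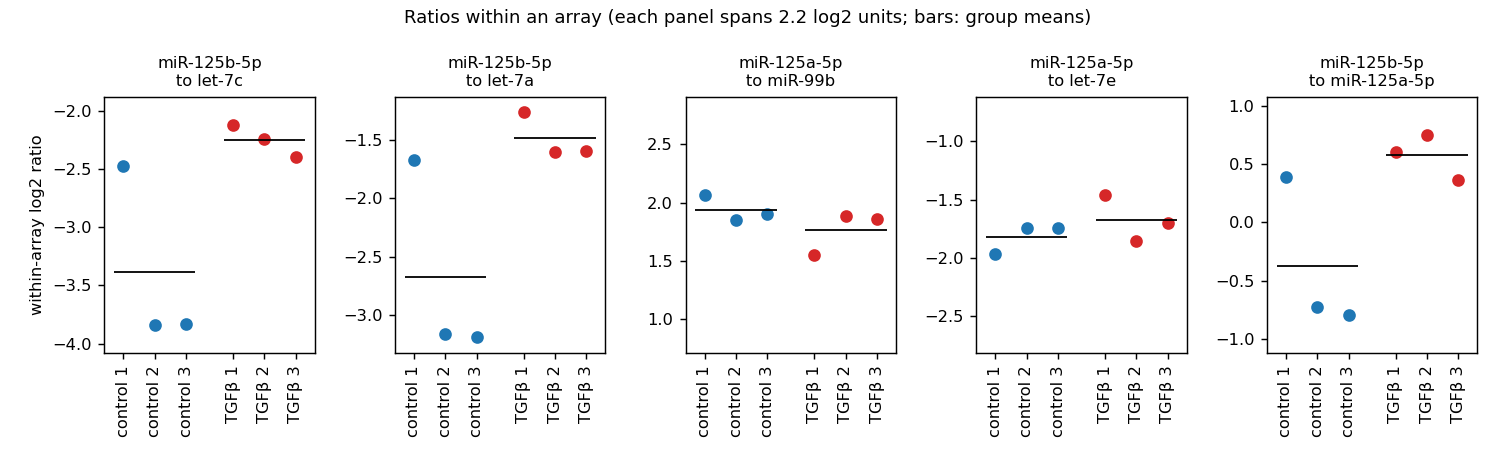
Within-array log2 ratios (vertical axes, each spanning the same distance) for the 5 pairs that were well above background on all arrays, controls in blue and TGFβ in red, with bars for group means. In the 3 ratios that contain miR-125b-5p, controls 2 and 3 lie at least 1.08 below every TGFβ array and control 1 lies beside them, while the 2 ratios of the chromosome 17 cluster show no such gap.

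The array profiles nearest to each tested member were found by the mean absolute difference of log2 signals over the 6 arrays, each miRNA centred on its own mean. Nearest to miR-125b-5p were miR-206 (0.20), a muscle-enriched miRNA, miR-34a (0.20) and miR-34b-5p (0.22), both known p53 targets, against a median of 0.66 over the other tested miRNAs. MiR-206 read 4.52, 3.79 and 3.78 in controls and 4.64, 4.83 and 4.43 with TGFβ, with controls 2 and 3 low and control 1 high. On controls 2 and 3 miR-206 was not well above background, so its likeness there rests on readings near background, whereas miR-34a and miR-34b-5p were well above background on all 6 arrays. Nearest to miR-125a-5p were miR-151-5p, miR-183 and miR-16 (0.09 each, median 0.24). Nearest to miR-99b were miR-22 (0.12), miR-25 (0.15) and miR-31 (0.15), against a median of 0.29.

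**Figure D5:**
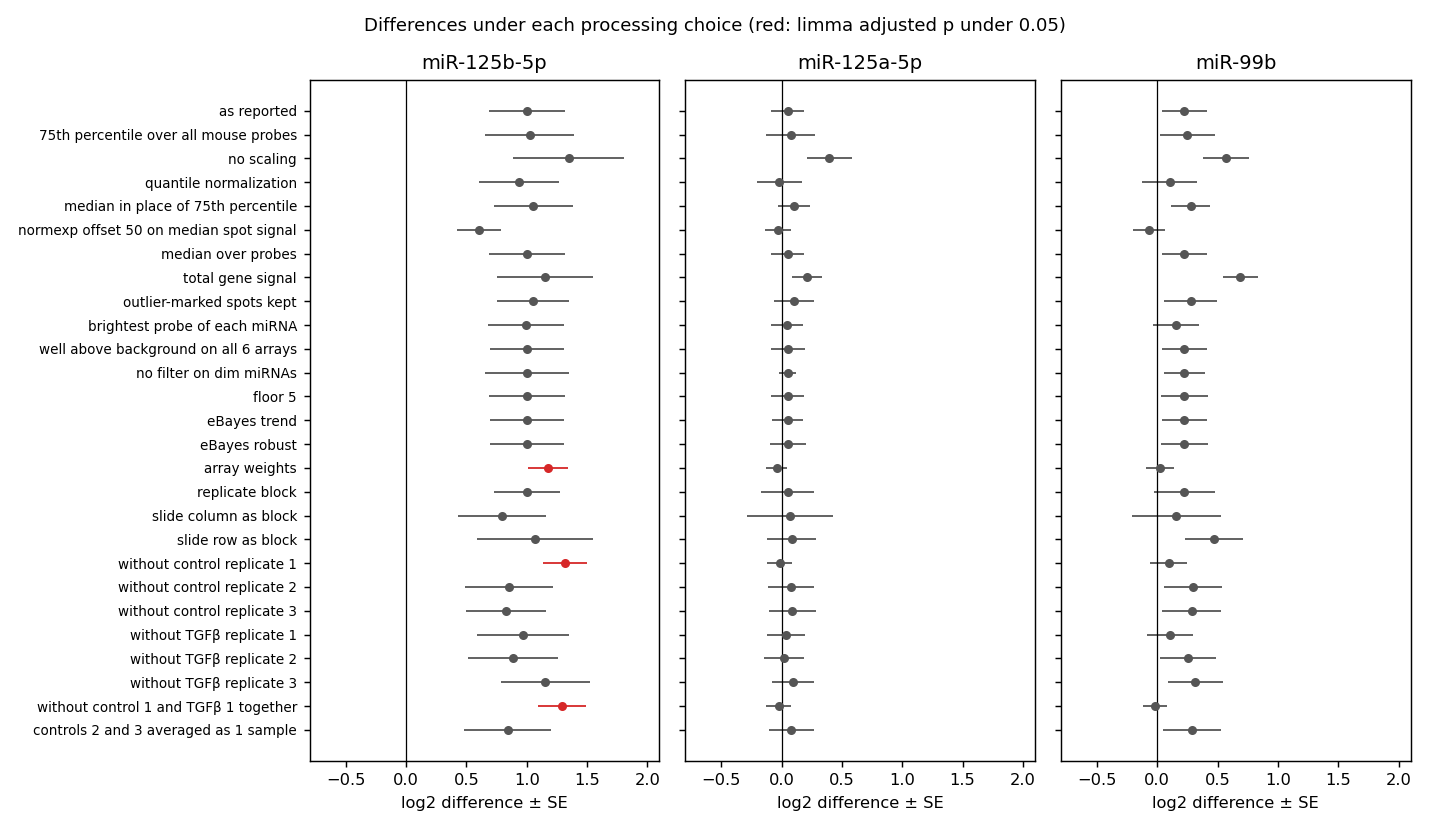
Log2 difference between TGFβ and control (horizontal axis, with SE bars) for the 3 tested members as reported and under 26 other processing choices, red where limma's adjusted p was under 0.05. MiR-125b-5p lies between 0.60 (normexp) and 1.35 (no scaling) throughout. It is red in 3 settings, each of which leaves out control 1 or gives it a low weight. MiR-125a-5p runs from -0.04 to 0.40 (no scaling) and miR-99b from -0.07 to 0.69. Without scaling the median over tested miRNAs was itself 0.26.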

How the data were processed

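The 6 deposited scanner files hold spot intensity from Agilent Feature Extraction after its background subtraction, with no scaling across arrays, per the file headers (version 10.7.3.1; the submitters' processing notes give 10.1.1). Intensity in the authors' series value table differed from the scanner values by at most 0. Well-above-background, outlier and saturation flags are other columns of the deposited files.

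Spots of a probe were averaged without outlier-marked spots, probes of a miRNA were averaged, and arrays were scaled to a common 75th percentile, taken over 105 probes well above background on all 6 (at least 0.5 of spots marked) and set to its geometric mean. Values under 1 were raised to 1 before log2. A miRNA was well above background where any of its probes was, and 84 that were so on all 3 arrays of a group were tested with limma 3.58.1 in R 4.3.3 (Benjamini-Hochberg, threshold 0.05), a step tested on simulated data. Where an array was left out, the percentile was taken again over the rest. Array number limits the precision; the median SE was 0.23. Groups came from sample titles. Replicate numbers in those titles were checked as pairs: deviations of same-numbered arrays from their group means correlated by 0.38, 0.37 and 0.52 over 84 miRNAs, and the differently numbered control 2 and TGFβ 3 by 0.385. The blocked fit is given on that basis, and the labels state no pairing. Pair ratios were tested by exact permutation of the arrays, two-sided.

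The members, the partner and marker lists, the pairs and the rule for named miRNAs (members, partners, and the 3 nearest profiles of each tested member) were chosen with earlier results of these data known. Plots used Python 3.11.15 and matplotlib 3.10.9. Normexp used the median spot signal.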

Additional observations from a re-analysis of the deposited data

How the results depend on the processing

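The number of miRNAs called went from 0 to 45 with array weights (in which control 1 had a weight of 0.14, from an estimate that stopped short of its convergence tolerance, and let-7a was called lower at -0.43), 1 with the replicate block, 3 with the slide row as a block (miR-494, miR-714 and miR-1224, named after their values were seen), 35 without control 1 and TGFβ 1, and 0 to 31 when each array was left out in turn, where only leaving out control 1 gave any; it stayed 0 in the other alternatives run. Slide row 2 held no control, so the calls with the row as a block rest on TGFβ 1 alone against the controls. The replicate block changed no other call, pair tests not being run with it. For miR-125b-5p the sign held in all 26 alternatives, with limma adjusted p of 0.00594 to 0.976, but many of them could hardly change it. Those that altered only the filter, floor, variance estimate or replicate block, and the median over probes, returned the same 1.00. As its groups did not overlap, leaving out arrays could turn the sign only through the renewed scaling. It passed with array weights (1.17), without control 1 (1.32) and without control 1 and TGFβ 1 (1.29), and leaving out 1 array gave 0.83 to 1.32. With the replicate block miR-125b-5p, miR-125a-5p and miR-99b differed by 1.00, 0.05 and 0.23. MiR-125a-5p turned to -0.021 with quantile normalization, -0.028 with normexp, -0.043 with array weights, -0.016 without control 1 and -0.025 without control 1 and TGFβ 1, and leaving out 1 array gave -0.016 to 0.094. MiR-99b turned to -0.068 with normexp and -0.021 without control 1 and TGFβ 1. Without scaling let-7a, let-7c and let-7e turned to 0.16, 0.22 and 0.25, below the median of 0.26 over tested miRNAs in that setting. With total gene signal let-7c was 0.017 and let-7e 0.046, below the median of 0.07. Let-7e was 0.0096 without control 1 and TGFβ 1. The ratio of miR-125a-5p to miR-99b turned to 0.040 with normexp and was -0.48 with total gene signal. The other 4 ratios kept their sign in all 17 alternatives, but not all of these could change it. Scaling by another percentile or not at all cancels in a ratio, and the median over probes and a higher floor also returned the same values. For miR-125b-5p to let-7a and to let-7c, whose groups did not overlap, leaving out 1 array could not turn the sign. The causes were not tested. MiR-99a and miR-100 had no tested value under any alternative that filtered dim miRNAs. The brightest probe alone, the 2 arrays left out together and controls 2 and 3 averaged were chosen after seeing the data. The main miR-99b probe had mean signals of 46.9 to 81.3 units, and the part of background in the miR-99b values was not tested.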
